A study of Mus musculus with 20 samples.

Results

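The 10 genes described here are commonly used as markers of fat cells and were followed through RNA-seq libraries of whole mouse adrenal glands. The members are Adipoq, Retn, Cidec, Cidea, Plin1, Ucp1, Pck1, Lpl, Cd36 and Fabp4, taken by symbol, 10 of the 47729 genes in the deposited table, and all 10 passed the filter on low values (a normalised count of at least 1 in at least 4 libraries). They were listed as signs of fat attached to the dissected gland, but 4 of them were high in every library, also where Adipoq, the gene of the fat cell hormone adiponectin, was nearly absent. Adipoq, Retn, Cidec, Cidea, Ucp1 and Pck1 fell to 4.80 normalised counts or less in their lowest library, whereas Plin1, Fabp4, Lpl and Cd36 never fell under 841. The division into 6 wide-ranging and 4 always-present genes was made after the values were seen.

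Fat cells store triglyceride in a lipid droplet coated by perilipin (Plin1) and enlarged by the CIDE proteins Cidec and Cidea. They secrete the hormones adiponectin (Adipoq) and resistin (Retn). They take up fatty acids that lipoprotein lipase (Lpl) frees from circulating lipoproteins and that the membrane protein Cd36 and the carrier Fabp4 move onward. Brown fat cells also burn fatty acids for heat through the mitochondrial uncoupler Ucp1, and Pck1 supplies glycerol for re-esterification. The adrenal gland lies in a fat pad that holds brown as well as white fat cells, and its cortex cells are themselves rich in lipid droplets, which store cholesterol esters for steroid synthesis. Lpl, Cd36 and Fabp4 are also made by cells other than fat cells, Cd36 and Fabp4 among them in capillary endothelium.

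The study asked how loss of the clock gene Bmal1 in the adrenal cortex acts in either sex. The 20 libraries comprised 5 control females aged 1.5 to 3.4 months, 5 Bmal1 KO females aged 2.4 to 3.4 months, 6 control males aged 2.9 to 4.7 months and 4 Bmal1 KO males aged 2.9 to 3.7 months. Every mouse, controls included, carried the SCC::Cre driver, named for the side-chain cleavage enzyme Cyp11a1 of steroid-producing cells, so any deletion was directed at those cells and not at fat, vessel or immune cells. Recovered reads per library ran from 13421985 to 26742820. Reads over the whole of Arntl, the gene of BMAL1, did not fall in libraries carrying the Bmal1 KO label (median 885 normalised counts in females and 929 in males) than in controls (550 and 638). A sum that takes in exons outside a deleted part does not check the deletion. The labels do not say that libraries of equal age came from separate animals, so the p-values speak of sample-to-sample spread, some of which could be technical.

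The 250 bases before the RefSeq start of 3 of the 6 wide-ranging genes, a hormone, a metabolic enzyme and the brown fat uncoupler, are shown. They are given for build GRCm38.p6, 5′ to 3′ on the gene's strand. Capitals mark matches to CCAAT in Adipoq, to ACGTCA (the core of the cAMP response element) and TATANA in Pck1, and to AGGTCA (a motif of nuclear receptors) and TATANA in Ucp1, with matches on either strand and overlapping matches joined.

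Adipoq (chr16:23146286-23146535, plus strand): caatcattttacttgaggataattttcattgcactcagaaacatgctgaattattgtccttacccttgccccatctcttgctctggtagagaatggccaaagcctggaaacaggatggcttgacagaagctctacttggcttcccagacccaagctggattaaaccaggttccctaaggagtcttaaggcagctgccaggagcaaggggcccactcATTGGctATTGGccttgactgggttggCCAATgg

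Pck1 (chr2:173152823-173153072, plus strand): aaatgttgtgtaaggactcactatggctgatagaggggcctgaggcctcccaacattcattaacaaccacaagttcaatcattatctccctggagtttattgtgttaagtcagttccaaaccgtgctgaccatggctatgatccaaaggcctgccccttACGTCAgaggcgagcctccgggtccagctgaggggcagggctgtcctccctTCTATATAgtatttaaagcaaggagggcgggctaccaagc

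Ucp1 (chr8:83290098-83290347, plus strand): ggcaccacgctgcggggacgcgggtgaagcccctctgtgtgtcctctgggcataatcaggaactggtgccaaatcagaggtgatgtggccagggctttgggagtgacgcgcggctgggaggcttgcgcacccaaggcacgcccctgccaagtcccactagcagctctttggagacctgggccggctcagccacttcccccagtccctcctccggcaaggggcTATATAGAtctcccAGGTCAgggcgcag

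Adipoq held CCAAT 7 to 3 bases before the start and, on the opposite strand, at 34 to 30 and 27 to 23. Pck1 held ACGTCA at 91 to 86 bases before the start, and Ucp1 held AGGTCA at 14 to 9. Among 32851 promoter windows of the same length, 33.8% held CCAAT, 6.47% ACGTCA, 14% AGGTCA and 22.6% TATANA on either strand. The C/EBP pattern TTGCNNAA, present in 9.56% of windows, was found in the window of Plin1. For Cidec it was found in the window at chr6:113434765-113435014 but not in that at chr6:113435761-113436010. The 7 members with a window had 8 windows in all, and Fabp4, Cidea and Lpl had none in the table. A match describes these letters only.

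Adipoq (ENSMUSG00000022878, chr16:23146536-23158028, plus strand, GRCm38) encodes adiponectin, which is made almost only by fat cells. Its normalised counts in control females 1 to 5 were 8.32, 3.09, 54.0, 977 and 196. In Bmal1 KO females 1 to 5 they were 0.934 (1 read), 19.2, 107, 337 and 11. Every group of females therefore held libraries with almost no Adipoq beside libraries rich in it. Control males ranged from 4.77 to 201 with a median of 48.5, and Bmal1 KO males 1 to 4 had 12, 70.5, 185 and 156. The highest library, control female 4, stood at least 349-fold above the lowest, Bmal1 KO female 1, where the single read was replaced by the count that 3 reads would give. All 4 groups overlapped.

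**Figure D1:**
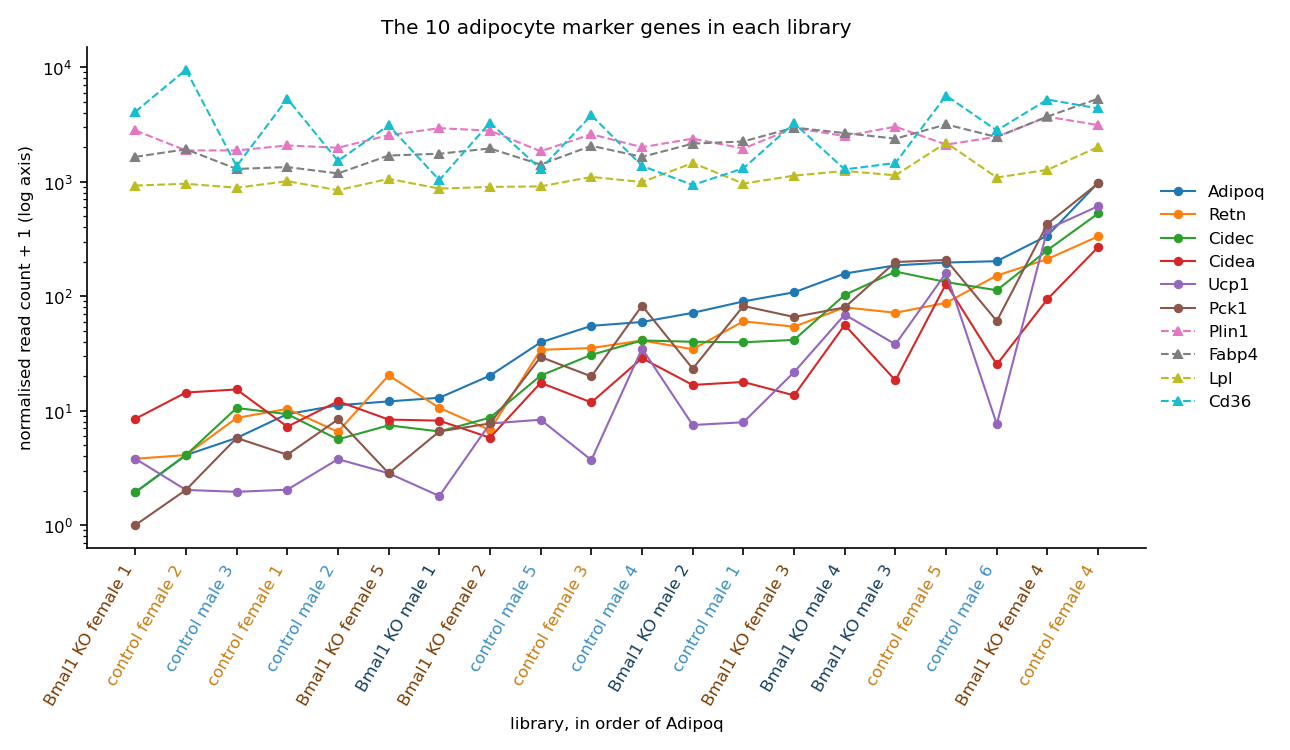
Normalised read count plus 1 (log axis) of each of the 10 genes in the 20 libraries, ordered from left to right by Adipoq; solid lines with circles are the 6 wide-ranging genes and broken lines with triangles the 4 always-present genes. The solid lines climb together towards control female 4, while Plin1, Fabp4, Lpl and Cd36 stay above 841 throughout.

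Retn (ENSMUSG00000012705, chr8:3655770-3660110, plus strand), the gene of resistin, took the values 9.36, 3.09, 34.2, 331 and 86.4 in control females 1 to 5. In Bmal1 KO females 1 to 5 it took 2.80, 5.77, 53.1, 210 and 19.3. The libraries high in Adipoq were thus high in Retn as well. Control males lay between 5.53 and 150 with a median of 36.5, and Bmal1 KO males 1 to 4 at 9.56, 33.4, 70.6 and 78.8. The span from lowest to highest library was 118-fold.

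Cidec (ENSMUSG00000030278, chr6:113424634-113435760, minus strand) promotes fusion of lipid droplets into the large droplet of white fat cells. Control females 1 to 5 had 8.32, 3.09, 29.7, 526 and 132 normalised counts, and Bmal1 KO females 1 to 5 had 0.934, 7.69, 40.5, 251 and 6.44. Among control males values ran from 4.61 to 112 with a median of 28.9, and Bmal1 KO males 1 to 4 had 5.58, 38.9, 163 and 101. Bmal1 KO male 3 thus exceeded control female 5 for this gene.

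Cidea (ENSMUSG00000024526, chr18:67343604-67367785, plus strand) is a droplet protein typical of brown fat cells. Its annotated span overlaps B430212C06Rik on the opposite strand, and no strand setting is given in the sources used here, so reads of the pair cannot be told apart. The values in control females 1 to 5 were 6.24, 13.4, 10.8, 267 and 128, and Bmal1 KO females 1 to 5 had 7.47, 4.80, 12.6, 93.2 and 7.36. Control males stayed between 11.1 and 27.7 with a median of 16.6, and Bmal1 KO males 1 to 4 had 7.17, 15.8, 17.4 and 55. Cidea thus had the narrowest span of the 6 wide-ranging genes, 55.6-fold, and never fell to the level of 3 reads.

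Ucp1 (ENSMUSG00000031710, chr8:83290352-83298452, plus strand) defines brown and beige fat cells. Control females 1 to 5 had 1.04, 1.03, 2.70, 610 and 158, of which the first 2 were 1 read each, and Bmal1 KO females 1 to 5 had 2.80, 6.73, 20.7, 383 and 1.84. Control males spread from 0.954 to 33.9 with a median of 6.77, and Bmal1 KO males 1 to 4 had 0.797, 6.49, 36.9 and 68.0. The 3 libraries control females 4 and 5 and Bmal1 KO female 4, exceeded 100, and 5 libraries lay under the count of 3 reads. Control female 4 stood at least 255-fold above the lowest library.

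Pck1 (ENSMUSG00000027513, chr2:173153048-173159273, plus strand) encodes the cytosolic phosphoenolpyruvate carboxykinase, which makes the glycerol backbone in fat cells and glucose in liver and kidney. The values in control females 1 to 5 were 3.12, 1.03, 18.9, 965 and 206, and Bmal1 KO females 1 to 5 had 0, 6.73, 64.8, 426 and 1.84. The 0 in Bmal1 KO female 1 allows a value of up to 2.80, the count of 3 reads there, and this limit covers counting error only. Values of control males went from 4.77 to 81.6 with a median of 44.0, and Bmal1 KO males 1 to 4 had 5.58, 22.3, 198 and 78.8.

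Summed over the 6 wide-ranging genes, the libraries ran from 14.9 normalised counts in Bmal1 KO female 1 to 3677 in control female 4. Control female 4 was highest for all 6 genes. Bmal1 KO female 4 was second for 5 of them and the third for 1, and control female 5 was among the top 4 for all 6. The control female libraries numbered 4 and 5 came from the youngest mice by label, at 1.5 months, and Bmal1 KO females 4 and 5 were labelled 2.4 months. Bmal1 KO female 5 summed to 47.8 and Bmal1 KO female 4 to 1700, so libraries of 1 genotype, sex and age label could differ widely. Bmal1 KO female 1 was lowest for 4 of the 6. In bulk RNA, fewer cells of a type and less RNA per cell cannot be told apart.

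**Figure D2:**
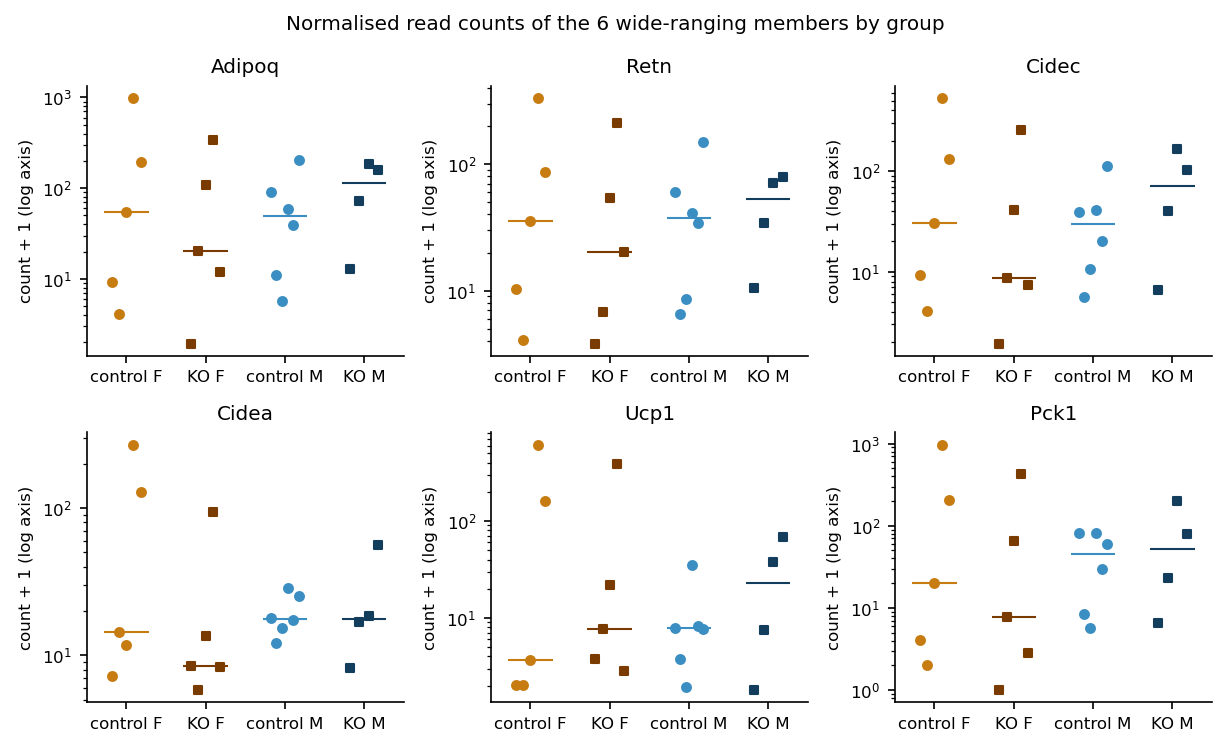
Normalised read count plus 1 (log axis) of the 6 wide-ranging genes by group, 1 point per library, with the group median as a line. The groups overlap in every panel for each comparison of genotype or sex, and control female 4 is the highest point of all 6 panels.

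No wide-ranging gene was called in any of the 5 comparisons by limma on log2 of the normalised count plus 1, with Benjamini-Hochberg adjustment over the 26612 genes tested and a threshold of 0.05. For Bmal1 KO against control females their log2 differences lay between -1.27 and -0.22 with standard errors of 0.86 to 1.62 and adjusted p from 0.630 to 0.983. For Bmal1 KO against control males they lay between 0.06 and 0.95 (adjusted p from 0.886 to 0.992). For females against males they lay between 0.14 and 1.27 in controls (0.50 to 0.961) and between -1.46 and 0.11 in Bmal1 KO (0.494 to 0.973). With age as a covariate all 6 changed sign between control females and males (-3.22 to -1.07) and between Bmal1 KO and control males (-0.72 to -0.12). Without control females 4 and 5 and Bmal1 KO female 4, all 6 were likewise lower in control females than in control males (-2.39 to -0.80), with no call in any of these fits. With errors of this size these libraries cannot show a change of moderate size in any of the 6 genes. Among controls, edgeR's quasi-likelihood test on the recovered reads called Ucp1 higher in females (log2 difference 4.12, adjusted p = 0.0420), and DESeq2 called Ucp1 (4.0, adjusted p = 0.0217) and Cidea (2.21, adjusted p = 0.0287). The raw values of both genes in control females 1 to 3 were within or below the range of control males.

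Genes outside the 10 followed the same order of libraries. Likeness was measured as Pearson's r of log2 of the normalised count plus 1 over the 20 libraries, among 17178 genes with a mean of at least 10. The 8 other genes most like Adipoq were Cfd (adipsin, r = 0.988), Car3 (0.963), Adig (adipogenin, 0.959), Adrb3 (the beta-3 adrenoceptor, 0.929), Tmem45b (0.920), Cyp2e1 (0.890), Hp (haptoglobin, 0.890) and Aoc3 (0.820). These r describe shared order over the same libraries, in which the libraries lowest and highest in Adipoq weigh most. Of the 17177 genes set against Adipoq, 25 (0.146%) had an r of at least 0.7. Among the members, Cidec (0.975), Retn (0.966), Pck1 (0.966), Ucp1 (0.841), Fabp4 (0.823), Cidea (0.772) and Lpl (0.705) reached that level, while Plin1 (0.409) and Cd36 (-0.05) did not. Within the 10 females and the 10 males, the r of Adipoq was 0.995 and 0.970 with Cfd, 0.987 and 0.944 with Cidec, and 0.899 and 0.776 with Ucp1.

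Among the 8 genes outside the members named as most like Adipoq, adipsin reached the highest count. Cfd ran from 11.2 normalised counts in Bmal1 KO female 1 to 5124 in control female 4, with a median of 406. Adipoq made up 11.9% to 17.9% of the Adipoq and Cfd reads in the 7 libraries with at least 100 Adipoq reads. In those 7 libraries Cidec made up 27.4% to 46.9% of the Cidec and Adipoq reads, and Retn 25.3% to 42.8% of the Retn and Adipoq reads. Pck1 made up 22.9% (exact binomial 95% interval 17.7% to 28.8%) of the Pck1 and Adipoq reads in control male 6 and 55.9% (52.1% to 59.7%) in Bmal1 KO female 4. The lowest and highest shares of Cidec (20.8% to 34.9% and 41.3% to 52.5%) and of Retn (23.1% to 27.7% and 37.3% to 48.4%) also had intervals that did not overlap. In each case the libraries compared were picked as the lowest and highest of the 7, and the intervals cover counting error only. Cidec, Retn and Pck1 thus rose with Adipoq but not in fixed proportion to it.

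**Figure D3:**
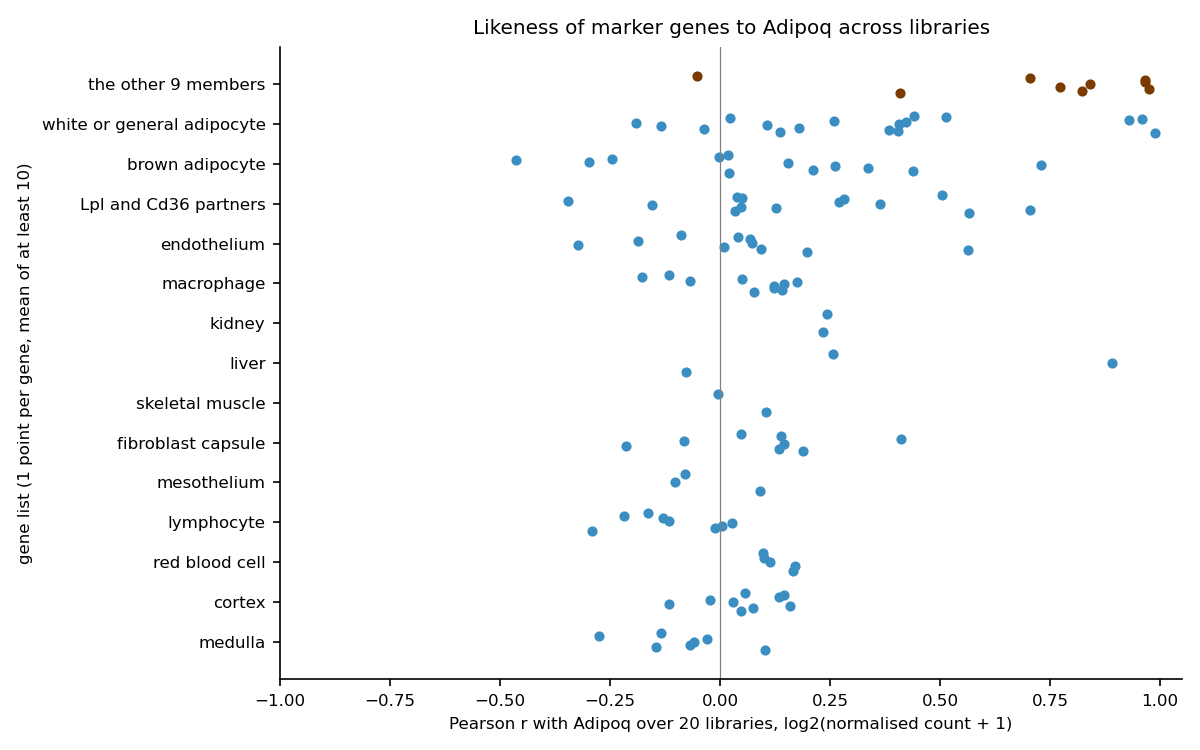
Pearson's r with Adipoq over the 20 libraries on the log2(normalised count + 1) scale, 1 point per gene with a mean of at least 10, for the other 9 members (brown) and 14 lists of cell type markers (blue). Of the other members 7 lie above 0.7, and so do Cfd, Adrb3 and Adig of the white or general adipocyte list, Cpt1b of the brown list, Angptl4 of the partners and Cyp2e1 of the liver list, while the other 10 lists have no gene there.

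The share of Ucp1 had the widest range. Ucp1 made up 38.4% of the Ucp1 and Adipoq reads in control female 4 (36.1% to 40.7%), 44.8% in control female 5 (39.4% to 50.2%) and 53.2% in Bmal1 KO female 4 (49.3% to 57.1%). In control male 6, which had as much Adipoq (201) as control female 5, it made up 3.19% (1.18% to 6.82%, 6 of 188 reads). These intervals, which cover counting error only, do not overlap between control male 6 and the 3 females. Bmal1 KO males 3 and 4 lay between, at 16.7% (11.8% to 22.5%) and 30.3% (24.1% to 37.0%). Shares did not divide by sex: Bmal1 KO female 3 had 16.2% (10.6% to 23.3%) and control female 3 had 4.76% (0.993% to 13.3%), whereas control male 4 had 36.7% (24.6% to 50.1%). Each library is 1 sample, so the difference between libraries has no replicate.

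**Figure D4:**
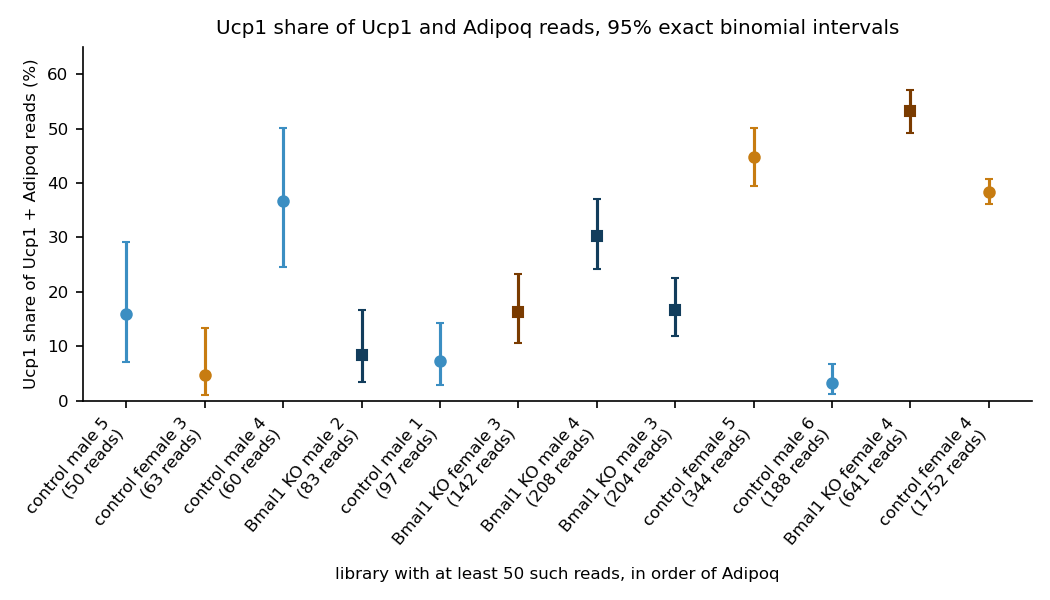
Percent of Ucp1 plus Adipoq reads that were Ucp1 (vertical axis) in the 12 libraries with at least 50 such reads, in order of Adipoq, with exact binomial 95% intervals as bars. Control male 6 sits at 3.19% beside control female 5 at 44.8%, and Bmal1 KO female 4 is highest at 53.2%.

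The 8 genes most like Ucp1 among those that are no members were Adig (r = 0.870), Car3 (0.865), Cyp2e1 (0.855), Ces1d (0.854), Cdo1 (0.832), Cfd (0.831), Adrb3 (0.831) and Slc36a2 (0.799), so 5 of them were also among the 8 nearest to Adipoq. Cidea (0.898) and Pck1 (0.891) were the members nearest to Ucp1. Among the 16 genes on the list of brown fat cells levels differed widely. Elovl3, a fatty acid elongase, reached 16.3 normalised counts and Otop1, a proton channel, 23.5, both highest in control female 4, and their medians over the 20 libraries were 0 and 0.918. The respiratory chain subunits Cox8b (median 191) and Cox7a1 (median 168) were present in every library and also highest in control female 4, at 560 and 337. Of the 16 genes, 7 were highest in control female 4. The sum over the list ranked 10 of 20 in control female 4, 11 in control female 5 and 13 in Bmal1 KO female 4. Leptin (Lep), a hormone of white fat cells, was highest in control male 6 at 34.2, against 28.1 in control female 4, 5.15 in control female 5 and 3.37 in Bmal1 KO female 4. In control male 6 Ucp1 stood at 6.63, near its median of 6.68 over the 20 libraries, and Cidea at 24.3, above its median of 15.

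Of the 18 genes on the list of white or general fat cells, 6 were highest in control female 4, and Cfd, Adrb3 and Adig were the 3 with an r of at least 0.7 to Adipoq. Pparg, the master regulator of fat cell formation, did not follow (r = 0.383): its highest values were 258 in Bmal1 KO male 1, a library with 12 counts of Adipoq, and 258 in control female 4. Lipe, the hormone-sensitive lipase that also frees cholesterol in steroid-producing cells, lay between 937 and 2501 (r = 0.137), and Pnpla2, the first lipase of triglyceride breakdown, between 1424 and 2490 (r = 0.405). Of all genes tested, 1.75% were called in Bmal1 KO against control females and 1.33% in Bmal1 KO against control males. On the white or general list 1 of 18 genes was called in females and 0 in males. The call was Gpd1, which makes glycerol phosphate (-1.0 ± 0.23, adjusted p = 0.0255 by limma). At unadjusted p under 0.05 there were 5 in females and 2 in males, and edgeR called 2 and 0. Their median log2 difference was -0.23 in females and 0.05 in males, against 0 and 0.00034 over all genes tested. Of the 16 brown fat genes 0 were called in either sex, with 1 and 2 at unadjusted p under 0.05 and 0 and 1 by edgeR.

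Plin1 (ENSMUSG00000030546, chr7:79720218-79732903, minus strand) coats lipid droplets in fat cells and in steroid-producing cells. It was the steadiest of the 10 genes, with a 2.0-fold span over the 20 libraries. Control females 1 to 5 had 2070, 1872, 2594, 3120 and 2104 normalised counts, and Bmal1 KO females 1 to 5 had 2801, 2787, 2945, 3685 and 2545. In control males it ranged from 1841 to 2463 with a median of 1960, and Bmal1 KO males 1 to 4 had 2929, 2373, 3021 and 2500. Bmal1 KO female 1, with 1 read of Adipoq, held 2801 counts of Plin1, above all 6 control males.

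The Bmal1 KO means of Plin1 were above the control means in both sexes, but the difference did not pass the test. In females the mean was 2953 ± 434 (SD, n = 5) against 2352 ± 505 (SD, n = 5), a log2 difference of 0.34 ± 0.12 (SE, adjusted p = 0.220 by limma). In males it was 2706 ± 317 (SD, n = 4) against 2015 ± 227 (SD, n = 6), a log2 difference of 0.42 ± 0.13 (adjusted p = 0.128). Only 1 control male, number 6, overlapped the Bmal1 KO males. The male difference passed with DESeq2 (adjusted p = 0.0454), and without control females 4 and 5 and Bmal1 KO female 4 (0.0439), libraries that enter this contrast through the shared estimate of spread.

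Fabp4 (ENSMUSG00000062515, chr3:10204088-10208576, minus strand), the fatty acid carrier of fat cells and capillary endothelium, stood between the 2 patterns. The values in control females 1 to 5 were 1340, 1916, 2054, 5300 and 3159, and Bmal1 KO females 1 to 5 had 1643, 1947, 2966, 3706 and 1689. Among control males it ran from 1179 to 2451 with a median of 1527, and Bmal1 KO males 1 to 4 had 1752, 2146, 2372 and 2653. Its highest libraries were those highest in Adipoq, yet Bmal1 KO female 1 still held 1643. No comparison of Fabp4 passed the test: females exceeded males among controls by 0.58 ± 0.29 (adjusted p = 0.150), and this difference was -0.01 with age as a covariate. It passed without control female 1 (0.80, adjusted p = 0.0409).

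**Figure D5:**
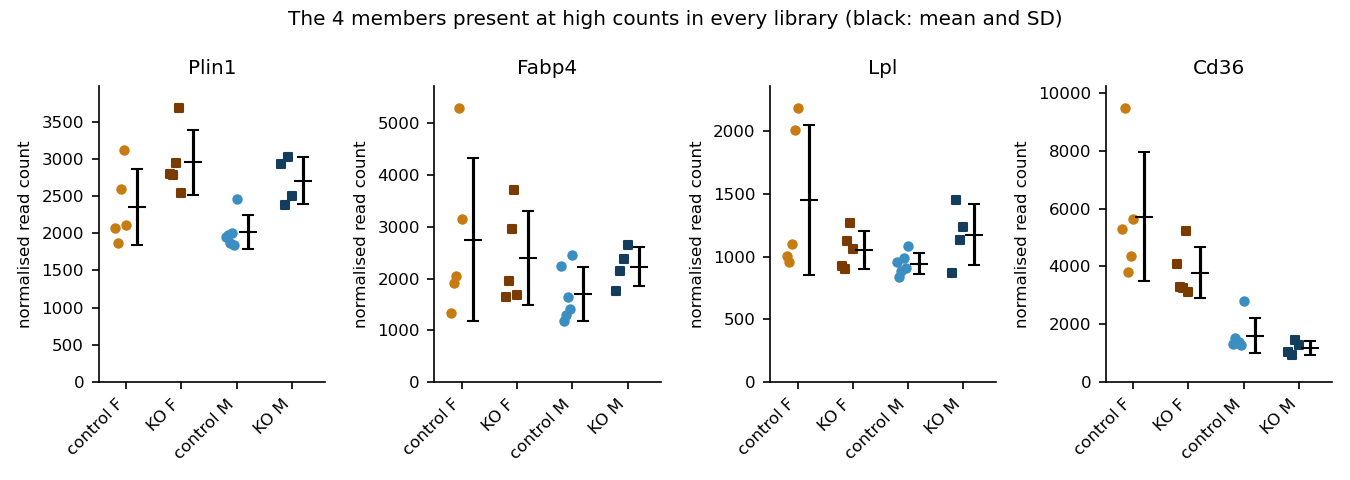
Normalised read counts of Plin1, Fabp4, Lpl and Cd36 by group, 1 point per library, with mean and SD in black, on axes that start at 0. The Cd36 values of all 10 females (3103 and above) lie over those of all 10 males (2798 and below), and control females 4 and 5 carry the high values of Lpl.

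Lpl (ENSMUSG00000015568, chr8:68880491-68907448, plus strand) works on the capillary wall after secretion by the cells beneath. Control females 1 to 5 had 1008, 957, 1098, 2009 and 2187, and Bmal1 KO females 1 to 5 had 924, 898, 1127, 1268 and 1058. Control males spanned 841 to 1086 with a median of 934, and Bmal1 KO males 1 to 4 had 868, 1453, 1135 and 1239. Control females 4 and 5 stood apart at about the same height, although their Adipoq differed (977 and 196).

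Lpl and Cd36 were the 2 of 10 members called between control females and males, both higher in females, where 13.5% of all genes tested were higher in females and 26.4% called in either direction. The log2 difference of Lpl was 0.53 ± 0.19 (adjusted p = 0.0409 by limma), on means of 1452 ± 595 (SD, n = 5) and 945 ± 87.3 (SD, n = 6), and the groups overlapped. The call was lost without single libraries: adjusted p was 0.137 without control female 4, 0.144 without control female 5, and from 0.0518 to 0.0775 without control male 1, 2, 3, 4 or 5. With age as a covariate the difference was 0.09 (adjusted p = 0.808), and without control females 4 and 5 and Bmal1 KO female 4 it was 0.11 (0.591). It was also lost with no filter (0.0529) and when only the control groups were fitted (0.0761). In Bmal1 KO libraries Lpl differed by -0.14 ± 0.21 between the sexes (adjusted p = 0.679), and the interaction of genotype and sex was -0.67 ± 0.28 (unadjusted p = 0.0258, adjusted p = 0.696 by limma), so the sex difference was not shown to depend on genotype.

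Cd36 (ENSMUSG00000002944, chr5:17781690-17888801, minus strand), a scavenger receptor for fatty acids and lipoproteins, gave the clearest group difference of the 10 genes. The values in control females 1 to 5 were 5299, 9483, 3805, 4356 and 5644, and Bmal1 KO females 1 to 5 had 4073, 3275, 3240, 5210 and 3103. In control males the range was 1286 to 2798 with a median of 1366, and Bmal1 KO males 1 to 4 had 1031, 935, 1454 and 1278. No male reached the lowest female, and Cd36 was the 1 member of 10 whose sexes did not overlap. Over all genes tested the sexes did not overlap in 13.9% among controls, 20.7% among Bmal1 KO and 7.31% over both genotypes. The highest value, 9483, belonged to control female 2, which had 3.09 counts of Adipoq.

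Among controls, Cd36 was 3.56-fold higher in females by group means, 5717 ± 2229 (SD, n = 5) against 1606 ± 589 (SD, n = 6), with a log2 difference of 1.82 ± 0.22 (adjusted p = 2.57e-06 by limma). Among Bmal1 KO libraries it was 3.22-fold higher, 3780 ± 885 (SD, n = 5) against 1174 ± 236 (SD, n = 4), with a log2 difference of 1.68 ± 0.24 (adjusted p = 3.04e-05). It was the 1 member of 10 called there, where 12.1% of genes were higher in females and 22.8% called in either direction. Leaving out each library in turn kept the difference between 1.62 and 1.99 in controls and between 1.56 and 1.79 in Bmal1 KO, with every adjusted p at or under 0.000249. With log2(Adipoq + 1) as a covariate it was 1.82 and 1.68, as large as without it.

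Between genotypes, 0 of 10 members were called in females and 0 of 10 in males, where 1.75% and 1.33% of all genes were called. By limma 2 members in females (Plin1 and Cd36) and 1 in males (Plin1) had an unadjusted p under 0.05. For 0 of 10 members did the genotypes not overlap in either sex, against 3.25% of all genes in females and 3.07% in males. edgeR called 0 in either sex, and DESeq2 called 0 in females and 1 in males. The Cd36 difference was -0.55 ± 0.23 in females (adjusted p = 0.318) and -0.41 ± 0.23 in males (adjusted p = 0.563), the Bmal1 KO mean being lower in both. The median log2 difference over the 10 members was -0.56 in females and 0.43 in males, against 0 and 0.00034 over all genes tested. For the interaction 0 of 10 members were called (1, Lpl, at unadjusted p under 0.05, 0 by edgeR and 0 by DESeq2), where 0.0301% of all genes were called.

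Levels were also compared per kilobase of exon, with all annotated exons of a gene joined. The means over the 20 libraries were 861 normalised counts per kilobase for Cd36, 532 for Plin1, 500 for Fabp4 and 109 for Lpl. For Fabp4 the joined exons covered its whole span of 4489 bases, so its value would be higher for a shorter transcript. Its rank beside Cd36 and Plin1 is therefore not settled. The wide-ranging genes averaged 91.9 for Adipoq and between 33.0 and 41.5 for Ucp1, Cidec, Retn, Cidea and Pck1. The order changed by library: in control female 4, Adipoq at 708 per kilobase exceeded Plin1 at 671, and in Bmal1 KO female 1 the same pair stood at 0.677 and 603. Together the 10 genes held 0.0268% to 0.0832% of a library's reads.

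The partners of Lpl, Cd36 and adiponectin were read from a list of 14 genes, of which 13 were tested. Gpihbp1, which carries Lpl to the capillary lumen, averaged 631 ± 75.9 in control females (SD, n = 5) and 606 ± 152 in control males (SD, n = 6), and did not pass between them (0.08 ± 0.15, adjusted p = 0.734). In Bmal1 KO libraries it was lower in females than in males by 0.61 on the log2 scale (-0.61 ± 0.16, adjusted p = 0.00961). Angptl4, an inhibitor of Lpl, was called in no comparison and was the 1 partner with an r of at least 0.7 to Adipoq (0.704), at 840 in control female 4 and 875 in Bmal1 KO female 4 against a median of 507. Its lowest value was 212, and in Bmal1 KO female 1 it was 235.

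The adiponectin receptor Adipor2 was higher in Bmal1 KO than in control females by 0.63 ± 0.13 (adjusted p = 0.0121 by limma), 5788 ± 1078 (SD, n = 5) against 3751 ± 757 (SD, n = 5), with no overlap between the groups. Groups do not overlap in 3.25% of genes in that comparison. In males it stood at 1852 ± 316 (SD, n = 4) against 1801 ± 88.3 (SD, n = 6) and did not pass (0.03 ± 0.14, adjusted p = 0.979), and the interaction was 0.61 ± 0.19 (adjusted p = 0.464). Sel1l, a protein of quality control in the endoplasmic reticulum that Lpl needs to mature, was higher in Bmal1 KO females (0.48 ± 0.09, adjusted p = 0.00524) and males (0.39 ± 0.09, adjusted p = 0.0359). In Bmal1 KO males the lipoprotein receptor Vldlr was higher too (0.49 ± 0.10, adjusted p = 0.0122). The list thus had 2 of 13 genes higher in each sex by genotype and none lower, where 1.75% of all genes were called in females and 1.33% in males, with a median difference of 0.13 in females and 0.03 in males.

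Between control females and males, 6 of the 13 partners were higher in females, against 13.5% of all genes, and 1 lower. The higher genes were led by Apoc2, the activator of Lpl (1.93 ± 0.40), then Adipor2 (1.03 ± 0.13) and Fabp5 (0.88 ± 0.19), with adjusted p from 3.46e-06 to 0.00188 by limma. The transporter Slc27a1 was lower (-0.39 ± 0.14, adjusted p = 0.0379). In Bmal1 KO libraries 6 were higher in females, against 12.1% of all genes, and 1, Gpihbp1, lower. The median over the list was 0.20 in controls and 0.18 in Bmal1 KO, against -0.05 and -0.07 over all genes tested.

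Fat cell genes that are no members were called between control females and males in 5 of 18 cases on the white or general list and 4 of 16 on the brown list, near the 26.4% of all genes called. Of the 18 white or general genes, Dgat2, the last enzyme of triglyceride synthesis (2.87 ± 0.34, adjusted p = 1.84e-06 by limma), the regulator Cebpa (1.96 ± 0.16, adjusted p = 1.13e-08) and Lipe (0.60 ± 0.14) were higher in control females, and the glucose transporter Slc2a4 (-1.45 ± 0.25) and the receptor Acvr1c (-1.02 ± 0.19) were lower. Of the 16 brown fat genes, Kng2 (5.25 ± 0.63) and the deiodinase Dio2 (3.0 ± 0.62) were higher, and the carrier Fabp3 (-2.0 ± 0.46) and the droplet protein Plin5 (-1.14 ± 0.22) lower. In Bmal1 KO libraries 4 white or general genes were higher in females and 2 lower, and 2 brown fat genes higher and 1 lower, where 22.8% of all genes were called. Dgat2 was highest in Bmal1 KO female 1 at 3232 and Cebpa in the same library at 977, where Adipoq had 1 read. Genes on both lists were thus called in both directions, and none of the 9 named for controls had an r of at least 0.7 to Adipoq.

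Markers of other cells that a dissected gland can carry were read in the same libraries. The 10 endothelial genes summed to between 17572 and 23973 normalised counts, and none of them had an r of at least 0.7 to Adipoq. Control females summed to between 17572 and 18690 and control males to between 18697 and 21820, so their ranges nearly touched. Bmal1 KO females (18123 to 22575) and males (20735 to 23973) overlapped. Of single genes tested, 13.9% did not overlap between the sexes among controls. For the interaction of genotype and sex 0 of the 10 endothelial genes were called by limma. By limma 4 of the 10 genes were called lower in females among controls and 4 among Bmal1 KO, with 0 higher. Of all genes tested, 26.4% and 22.8% were called in either direction. The kidney markers Umod and Slc34a1 were at 0 in all libraries, and the 10 kidney genes summed to at most 46.8. Of the liver list Cyp2e1 had an r of at least 0.7, while albumin (Alb), with a median of 2.04, stood at 3.62 in control female 4, 19.6 in control female 5, 24.7 in Bmal1 KO female 4 and at its highest, 79.9, in Bmal1 KO male 4. The macrophage and lymphocyte sums were highest in control female 5, at 33097 and 1470, and ranked 11 and 19 of 20 in control female 4. The cortex markers summed to between 736253 and 1532550 and had no gene with an r of at least 0.7. The part of these cell types in the members' values was not tested.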

How the data were processed

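RNA from whole adrenal glands was sequenced in 20 libraries. Per the submitters' processing notes, FastQC, MultiQC, featureCounts, Salmon and DESeq2 were used with mm10 and GRCm38; the sources used here name no aligner, annotation release, strand setting or time of day. Deposited by the authors was 1 table with a normalised signal per gene and library. Dividing each library by its smallest step gave whole reads for 100% of positive values within 0.001 reads, and these served for shares, floors of 3 reads, exact 95% intervals and count tests. The values were read as counts divided by size factors.

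Tests used limma 3.58.1 (trend) on log2(value + 1), with 1 mean per genotype and sex group over all 20 libraries, for the 26612 genes at 1 or more in 4 or more libraries, adjusted by Benjamini-Hochberg and called under 0.05. The fit was tested on simulated data, for Bmal1 KO against control females only. The simulated spread was far smaller than that of the wide-ranging genes, so this test does not cover them. Alternatives were pseudocounts of 0.1 and 10, 2 filters, edgeR 4.0.16 and DESeq2 1.42.0 on recovered reads, a replicate block, age as a covariate, fits of only the groups compared, and each library left out; chosen after seeing the data were a fit without 3 libraries and one with Adipoq as a covariate. Gene positions and exon lengths came from GENCODE M21 and promoters from RefSeq. Named genes are the 10 members, called genes of 14 marker lists (at most 5 per list and comparison, and up to 3 examples), and the 8 genes nearest to Adipoq and to Ucp1; Lep and single genes chosen after their values were seen, such as Pparg in Bmal1 KO male 1, illustrate the lists. The value of 1 listed gene is not reported here. The members and lists were chosen with earlier results of these data known. Correlations of the deviations of same-numbered libraries ran from -0.15 to 0.24 and were not all over 0.1, so numbers were not taken as pairs.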

Additional observations from a re-analysis of the deposited data

Results flagged for a closer look

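In 15 of 40 pairs of a member and a group, 1 library lay far from the rest of its group by Dixon's criterion at the 95% level. The criterion was applied to normalised counts without logs. Its rate of about 1 in 20 by chance holds for normally distributed values, which these widely spread counts are not, so the 15 cannot be set against it. The pairs are not independent, since the members share libraries.

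Control female 4 stood apart among control females in 5 genes: Adipoq (977 normalised counts against 196 in the next library), Cidec (526 against 132), Ucp1 (610 against 158), Pck1 (965 against 206) and Retn (331 against 86.4). In each of them the next library was control female 5.

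Bmal1 KO female 4 stood apart among Bmal1 KO females in 5 genes: Cidec (251 against 40.5), Cidea (93.2 against 12.6), Ucp1 (383 against 20.7), Pck1 (426 against 64.8) and Retn (210 against 53.1). The next library was Bmal1 KO female 3 in all 5.

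Control male 6 stood apart among control males in 4 genes: Cidec (112 against 40.0), Retn (150 against 59.3), Plin1 (2463 against 1997) and Cd36 (2798 against 1516). Its Cd36 was thus the nearest of any male to the females, whose lowest value was 3103. Control male 4 stood apart in Ucp1, at 33.9 against 7.33, in the library with the fewest reads (13421985).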

How the results depend on the processing

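The sex difference of Cd36 kept its direction and its call under every alternative run. The count of members called between control females and males, 2 as reported, was 1 with no filter, with age as a covariate, when only the groups compared were fitted and without control females 4 and 5 and Bmal1 KO female 4; it was 3 with edgeR, 4 with DESeq2 and from 1 to 3 with single libraries left out. In Bmal1 KO against control males it was 1 instead of 0 with DESeq2, with the replicate block (Plin1, adjusted p = 0.0304) and without those 3 libraries. The block changed no other count of members called; among females 4 of 5 numbers correlated best with their own, among males 0 of 4.

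Among the 4 always-present genes, signs changed only in differences that the limma fit reported above did not call. The Plin1 interaction was 0.019 with the Adipoq covariate and from -0.17 to 0.025 (without control female 4) with single libraries left out. The Fabp4 difference between genotypes in females was 0.042 with age, 0.20 without the 3 libraries, 0.060 with the Adipoq covariate, 0.0010 without Bmal1 KO female 1 and from -0.33 to 0.16 with single libraries left out. Between the sexes Fabp4 was -0.014 in controls with age, and in Bmal1 KO -0.19 with age, -0.14 without the 3 libraries, -0.060 without Bmal1 KO female 3, -0.073 without Bmal1 KO male 1 and from -0.14 to 0.15 with single libraries left out. The Lpl sex difference in Bmal1 KO was 0.0035 with the Adipoq covariate, and the Cd36 interaction ran from -0.31 to 0.063 (without control female 2) with single libraries left out. With the Adipoq covariate, Fabp4 passed between control females and males (0.49, adjusted p = 0.00793). Among the 6 wide-ranging genes at least 1 sign changed under 8 of 31 settings in each genotype comparison. In the sex comparisons this held for 8 and 10 settings, and in the interaction for 4 of 30. Other filters or leaving out a library of neither group compared could not change a sign, so these counts understate how easily signs changed. All 6 signs changed with age in Bmal1 KO against control males and in control females against males, the latter also without the 3 libraries. The causes were not tested.

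Over all genes, 467 were called by genotype in females, 906 with DESeq2 and 220 without the 3 libraries, and 354 in males, 730 with DESeq2, 195 with only the groups compared and from 217 to 484 with single libraries left out. The interaction count of 8 was 70 with DESeq2, 5 with the block, 0 with age, 2 with the Adipoq covariate and from 0 to 16 with single libraries left out. The 7023 calls between control females and males were 3746 with age. Depth limits the low libraries: in 5 of them Ucp1 lay under the floor of 3 reads.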

Other observations

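Some genes of the marker lists varied by library in a pattern of their own. Pparg, the regulator of fat cell formation, stood at 258 normalised counts in Bmal1 KO male 1 and at 258 in control female 4 against a median of 35.9 over the 20 libraries, and in the first of them Adipoq was 12 and Retn 9.56. Fabp3, a fatty acid carrier of muscle and brown fat, was highest in control male 1 at 274 and stood at 37.6 in control male 6, where Lep was highest (34.2). Between Bmal1 KO and control males Fabp3 differed by -1.85 ± 0.49 on the log2 scale (adjusted p = 0.0717 by limma), 48.1 ± 16.9 (SD, n = 4) against 198 ± 88.0 (SD, n = 6).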
